A study of Mus musculus with 4 samples.

Results

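The genes described here are 37 genes of glycolysis and of the response to low oxygen, chosen by symbol from a list. That list was set with earlier results of these data known, so shares of all genes set beside it are descriptive. All 37 had a row among the 16857 genes of the deposited table, and all 37 passed the filter on low values. They are 16 genes of glucose import and the glycolytic enzymes, 5 genes that regulate glycolysis or export lactate, 12 other target genes of the hypoxia-inducible factors (HIF), and 4 genes for HIF subunits and the machinery that degrades them. RNA had been sequenced in bulk from 4 mouse adenoma colonoid lines, which are epithelial structures grown in culture, with 1 library for each line. The G2 lines, numbered 157 and 236, carried the genotype Apcnull/LSL-mTERT-homo, and the G0 lines, numbered 75 and 179, carried Apcnull/LSL-mTERT-het. All 4 lines are therefore labelled null for Apc, the negative regulator of Wnt signalling whose loss starts intestinal adenomas, and all 4 carry the LSL-mTERT allele of the telomerase gene in 1 or both copies. An LSL cassette is a stop sequence between loxP sites that blocks a gene until Cre recombinase removes it. The series compares Apcmin colonoids of low and high chromosomal instability (CIN), and neither name is tied to G0 or G2 in the labels. The labels used here state no age, passage, medium or oxygen level for the lines.

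Glycolysis splits glucose into pyruvate, and lactate dehydrogenase then turns pyruvate into lactate when it is not burned in mitochondria. HIF is a pair of proteins that switches on most of these enzymes, together with genes for glucose import, blood vessel growth, acid handling and removal of mitochondria. Its alpha subunits are made all the time and are destroyed when oxygen is present, because prolyl hydroxylases mark them for the VHL ubiquitin ligase, so HIF activity is set mainly by protein stability. In the colon the epithelium lives close to an oxygen-poor lumen, and Wnt-driven adenomas are known for high glucose use.

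Levels are normalized counts, recovered from the deposited log values, with library totals of 16545429 to 17901744 counts. Tert, the telomerase gene, had 0 and 0.977 normalized counts in G2 lines 157 and 236, against 93.3 and 97.5 in G0 lines 75 and 179, and so followed the genotype. The Y-linked genes Ddx3y, Uty, Kdm5d and Eif2s3y had 296 to 526 normalized counts in the G2 lines and 0 in both G0 lines, so group and the presence of Y transcripts cannot be told apart for any result given here. The libraries of 1 group were distinct from each other, with a chi-square of 24.3 per gene in G2 and 33.0 in G0. Whether the lines derive from different mice is not stated, and p-values cover only the variation among the 4 libraries.

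Glycolysis and hypoxia genes were mostly lower in the G2 lines, and they also differed widely between lines of the same group. Of the 37 genes, 6 fell in G2 and 0 rose by the limma test at an adjusted p under 0.05, where 4.56% of all 13981 genes tested fell, 5.93% rose and 10.5% did either. The 6 were the glucose transporter gene Slc2a1, the enzymes Hk2, Pfkp and Ldha, the collagen hydroxylase gene P4ha1 and the carbonic anhydrase gene Car9. The median log2 fold change (G2 minus G0) was -0.70 over the 37 genes, against 0.01 over all genes tested, and 33 of the 37 values were below 0, as were 48.9% of all genes. That median was -0.40 without G0 line 179, -0.46 without G2 line 157, -0.95 without G2 line 236 and -1.05 without G0 line 75. Both G2 lines lay below both G0 lines for 24 of the 37 genes (64.9%), against 28.6% of all genes tested, and 0 of the 37 lay the other way, against 29.2%. In either direction, the groups did not overlap for 57.8% of all genes. Leaving out 1 library leaves 1 line in a group, and such a fit could not test the 6 calls, so only effect sizes are given for it. A sum of 14 proliferation markers was also lower, at 30167 and 26574 normalized counts in the G2 lines and 39763 and 40007 in the G0 lines, and its part in these results was not tested. In bulk RNA, fewer cells of a type and less RNA per cell cannot be told apart.

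**Figure D1:**
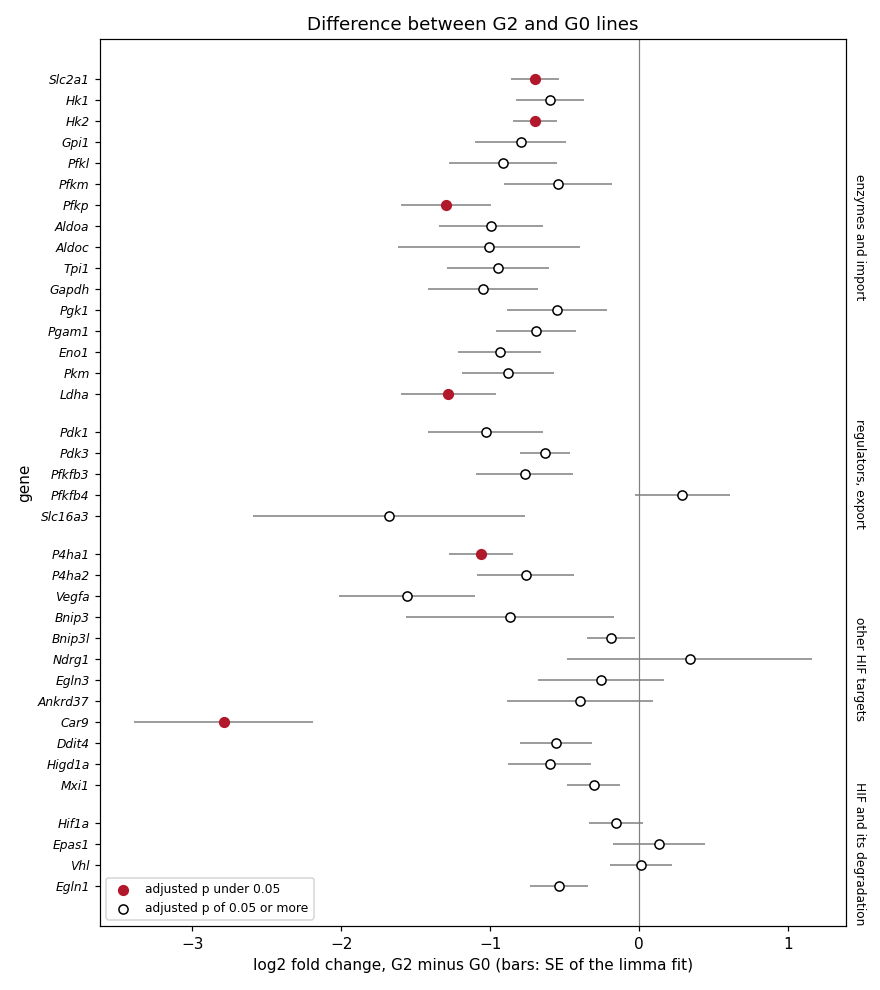
Log2 fold change of each gene, G2 minus G0, from the limma fit (x axis) for the 37 genes in 4 groups (y axis), with the SE as bars. The 6 filled points have an adjusted p under 0.05 and all lie below 0, from -0.70 for Slc2a1 and Hk2 to -2.79 for Car9.

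The sequence just before the start of these genes is shown because HIF binds DNA at the letters ACGTG, and also where the first letter is a G (GCGTG). Sequences are from RefSeq on GRCm38.p6, written 5′ to 3′ on the strand of the gene, and capitals mark either motif on either strand. On the opposite strand the first motif appears as CACGT, while the second one is then seen as CACGC. Each stretch runs from 20 bases before the first match to 20 bases after the last, within the 250 bases before an annotated start. The stretches of Ldha and Pfkp, and part of that of P4ha1, lie inside the gene positions given below. Ldha has 2 annotated starts, and the window of the one not shown held GCGTG 1 time and no ACGTG. The first 6 belong to the genes that fell, and the last 2 to HIF targets whose groups of lines overlapped.
Car9 (chr4:43506988-43507025, plus strand): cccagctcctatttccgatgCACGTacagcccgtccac
Slc2a1 (chr4:119108664-119108733, plus strand): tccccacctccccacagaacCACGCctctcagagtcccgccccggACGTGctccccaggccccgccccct
Hk2 (chr6:82774482-82774700, minus strand): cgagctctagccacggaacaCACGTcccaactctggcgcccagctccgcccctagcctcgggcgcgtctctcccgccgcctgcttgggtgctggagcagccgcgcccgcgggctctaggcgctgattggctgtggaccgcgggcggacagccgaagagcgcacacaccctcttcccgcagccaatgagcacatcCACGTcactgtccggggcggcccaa
Ldha (chr7:46845639-46845794, plus strand): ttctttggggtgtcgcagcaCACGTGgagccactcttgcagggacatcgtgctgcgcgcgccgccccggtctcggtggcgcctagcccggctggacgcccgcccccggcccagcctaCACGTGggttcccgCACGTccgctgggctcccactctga
P4ha1 (chr10:59323113-59323295, plus strand): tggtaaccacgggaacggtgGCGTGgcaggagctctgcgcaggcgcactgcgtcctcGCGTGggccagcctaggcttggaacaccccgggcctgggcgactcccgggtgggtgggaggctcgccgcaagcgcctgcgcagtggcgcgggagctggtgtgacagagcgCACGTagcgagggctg
Pfkp (chr13:6648772-6648927, minus strand): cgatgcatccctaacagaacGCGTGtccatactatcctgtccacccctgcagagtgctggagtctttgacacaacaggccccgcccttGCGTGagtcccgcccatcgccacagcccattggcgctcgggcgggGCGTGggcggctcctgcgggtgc
Bnip3 (chr7:138909517-138909643, minus strand): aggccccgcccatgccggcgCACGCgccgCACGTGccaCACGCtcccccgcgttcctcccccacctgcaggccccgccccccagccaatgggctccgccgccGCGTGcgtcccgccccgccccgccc
Egln3 (chr12:54204079-54204123, minus strand): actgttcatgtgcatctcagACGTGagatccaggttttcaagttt

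Of the 34 genes with an entry in the promoter table, 31 (91.2%) held ACGTG or GCGTG on either strand in the 250 bases before at least 1 of their starts, and 22 (64.7%) held ACGTG itself. Among 10885 genes of the fit with an entry, 60.05% held either motif and 24.5% held ACGTG. In Ldha and Bnip3 the letters CACGTG hold that motif on both strands, and each strand was counted. Counted by start in place of gene, 40 of 50 windows (80.0%) of these genes held either motif, against 38.6% of 32851 windows in the table. That background is unlike the one by gene, because it also holds windows of genes outside the fit. The windows differed in base composition too. Their median GC content was 63.4% for these genes, 59.6% for the genes of the fit and 52.4% for all genes with an entry. The part of these differences in the motif shares was not tested. All 10 other HIF targets with an entry held a motif, among them Bnip3 and Egln3, whose groups of lines overlapped. Bnip3l, Ndrg1 and Epas1 had no entry.

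Glucose enters the cell through Slc2a1 (GLUT1), which lies on chromosome 4 from 119108745 to 119137330 (GRCm38.p6, as for all positions here). It had 3056 and 3204 normalized counts in G2 lines 157 and 236, against 4431 and 5825 in G0 lines 75 and 179. Both G2 lines were lower than both G0 lines, and Slc2a1 fell 1.64-fold as a ratio of means (log2 fold change -0.70, SE 0.16, adjusted p = 0.0412). Hexokinase then traps glucose as glucose 6-phosphate. Hk2, the inducible hexokinase, on chromosome 6 from 82725025 to 82774454, had 563 and 626 normalized counts in the G2 lines and 921 and 1011 in the G0 lines. The lines of each group lay close together, and Hk2 fell 1.63-fold (log2 fold change -0.70, SE 0.15, adjusted p = 0.0303). Hk1, the hexokinase of most tissues, had 3385 and 2900.1 in the G2 lines and 3761 and 5994 in the G0 lines, with line 179 apart from the other lines, and did not pass (adjusted p = 0.148). Slc2a1 lost its call without the filter on low values and without the intensity trend, and Hk2 without the intensity trend, of 11 alternatives that kept all 4 libraries.

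Phosphofructokinase sets the pace of glycolysis, and of its 3 genes the platelet type Pfkp passed the test while the liver type Pfkl and the muscle type Pfkm did not. Pfkp, on chromosome 13 from 6579874 to 6649060, had 919.7 and 1199 normalized counts in G2 lines 157 and 236, against 1853 and 3593 in G0 lines 75 and 179. Both G2 lines were lower, though line 179 stood well above line 75. Pfkp averaged 1059.5 ± 198 in G2 and 2723 ± 1230.4 in G0 (SD, n = 2 each), a 2.57-fold fall (log2 fold change -1.30, SE 0.30, adjusted p = 0.0409). Pfkl had 3043 and 6066 in the G2 lines and 6153 and 10663 in the G0 lines, so line 236 almost met line 75, and it did not pass (adjusted p = 0.166). Pfkm, low in every line, had 119 and 209 in the G2 lines and 176 and 303 in the G0 lines, which overlap (adjusted p = 0.378). Per kilobase of transcript, Pfkp held 20.6% and 14.6% of the summed phosphofructokinase level in the G2 lines, against 20.7% and 22.6% in the G0 lines, and Pfkl held 75.6% and 81.8% against 76.5% and 74.6%. Line 157 thus had nearly the same Pfkp share as line 75, and the share was lowest in line 236. The Pfkm share was 3.83% and 3.65% in the G2 lines and 2.83% and 2.74% in the G0 lines, with no overlap. With 2 lines against 2, an exact two-sided permutation test cannot go below p = 0.333, so no isozyme share could pass. Pfkp lost its call without the filter, under quantile normalization and without the intensity trend.

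The middle of the pathway varied from line to line with nearly the same pattern for each enzyme. Aldoa, the main aldolase, had 23228 and 38748 normalized counts in G2 lines 157 and 236, against 44737 and 80026 in G0 lines 75 and 179. Tpi1, which interconverts the triose phosphates, had 6662 and 11750.1 in the G2 lines and 12819 and 22753 in the G0 lines. Gapdh, the dehydrogenase often used as a loading control, had 85826 and 128693 in the G2 lines and 164955 and 285965 in the G0 lines. In each of these 3 genes line 157 was lowest, then line 236, line 75 and line 179. The mean was 2.01 times lower in G2 for Aldoa, and the log2 fold change was -0.95 for Tpi1 and -1.05 for Gapdh, and none passed (adjusted p = 0.125, 0.133 and 0.124). Gapdh stood 3.33 times higher in line 179 than in line 157. Gpi1, which turns glucose 6-phosphate into fructose 6-phosphate, had 13976 and 21277 in the G2 lines and 22999 and 38987 in the G0 lines (adjusted p = 0.153). The minor aldolase gene Aldoc had 225 and 484 in the G2 lines and 343 and 1287 in the G0 lines, which overlap (adjusted p = 0.332), and per kilobase it held 0.424% to 0.886% of the aldolase level in the 4 lines.

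Among the payoff steps, Ldha passed the test. Ldha, which makes lactate from pyruvate, on chromosome 7 from 46842274 to 46855627, had 11133 and 18056 normalized counts in G2 lines 157 and 236, against 26506 and 44708 in G0 lines 75 and 179. The groups did not overlap. Ldha averaged 14594 ± 4895 in G2 and 35607 ± 12871 in G0 (SD, n = 2 each), a 2.44-fold fall (log2 fold change -1.28, SE 0.32, adjusted p = 0.0487). This call had the highest adjusted p of the 6 and was lost in 5 of the 11 alternatives that kept all libraries: the smaller pseudocount, no filter, upper quartile scaling, quantile normalization and no intensity trend. Eno1, the enolase of most cells, had 35071 and 50188 in the G2 lines and 66755 and 96648 in the G0 lines (adjusted p = 0.0819). Pkm, a pyruvate kinase gene whose splice forms are not told apart here, had 30103 and 43129.5 in the G2 lines and 51129 and 86229 in the G0 lines (adjusted p = 0.124). Pgam1, the phosphoglycerate mutase, had 10590.2 and 14461 in the G2 lines and 15669 and 25562 in the G0 lines (adjusted p = 0.155). Neither group overlapped the other for Eno1, Pkm or Pgam1, yet none of them passed. The ATP-forming kinase gene Pgk1 had 7931 and 14133 in the G2 lines and 11866 and 20233 in the G0 lines, so that G2 line 236 was above G0 line 75 (adjusted p = 0.336). Processed pseudogenes of Gapdh, Ldha, Pgk1 and other enzymes can share reads with the genes, and the pseudogene row Gapdh-ps15 held 13.1 and 14.7 normalized counts in the G2 lines and 19.6 and 19.3 in the G0 lines.

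Across these 16 genes, 4 fell and 0 rose, all 16 log2 fold changes were below 0 with a median of -0.90, and 13 had G2 lines that lay wholly below the G0 lines. Of all genes tested, 4.56% fell, 48.9% were below 0 and 28.6% lay wholly lower in G2. The median of the 16 genes was -0.51 without G0 line 179 and lay between -0.62 and -1.23 without each of the other lines. Together they took 1.41% of the counts in G2 line 157 (95% Wilson interval 1.408 to 1.419) and 2.12% in G2 line 236 (2.111 to 2.124), against 2.58% in G0 line 75 (2.576 to 2.591) and 4.01% in G0 line 179 (4.004 to 4.022). These intervals cover counting error only. Per kilobase, averaged over the 4 lines, Gapdh was the most abundant at 117155 normalized counts and Pfkm the least at 70.0, with Eno1 and Aldoa at 30669 and 30138. Hk2 stood at 141 per kilobase and Hk1 at 937, so Hk2 was the minor hexokinase in every line, at 11.4% and 14.3% of the pair in the G2 lines and 16.0% and 11.6% in the G0 lines.

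**Figure D2:**
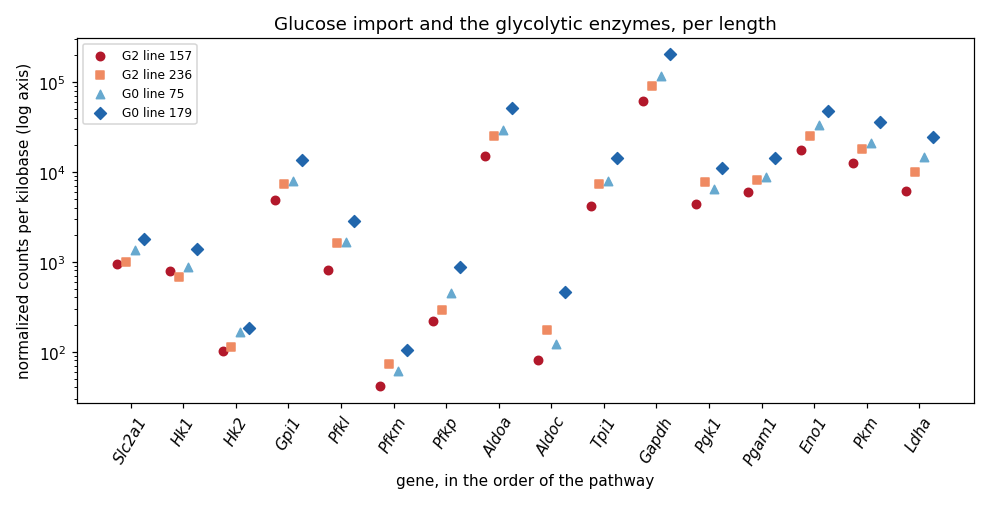
Normalized counts per kilobase of transcript (y axis, log scale) of Slc2a1 and 15 glycolytic enzymes in the order of the pathway (x axis), with 1 point for each line. Line 179 of G0 is highest for all 16 genes, and line 157 of G2 is lowest for 15, with Hk1 lowest in line 236.

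None of the 5 genes that steer pyruvate and lactate or tune phosphofructokinase passed the test, where 10.5% of all genes tested did. Pdk1, a kinase that keeps pyruvate out of mitochondria, had 529 and 1069 normalized counts in G2 lines 157 and 236, against 1134 and 2088 in G0 lines 75 and 179 (ratio of G0 to G2 means 2.02, adjusted p = 0.142). Pdk3, a kinase of the same family, had 355 and 409.6 in the G2 lines and 567 and 616 in the G0 lines, with lines of a group close together, and missed the threshold narrowly (log2 fold change -0.63, SE 0.17, adjusted p = 0.0584). Pfkfb3, which makes the activator of phosphofructokinase, had 251 and 484 in the G2 lines and 502 and 704 in the G0 lines (adjusted p = 0.187). Both G2 lines lay below both G0 lines for these 3 genes, as for 28.6% of all genes tested, but for Pdk1 and Pfkfb3 line 236 came close to line 75. Pfkfb4, an enzyme of the same family, had 75.6 and 98.7 in the G2 lines and 58.9 and 84.3 in the G0 lines, a log2 fold change of 0.29 (SE 0.32, adjusted p = 0.594). Slc16a3 (MCT4), which exports lactate, had 193 and 1409 in the G2 lines and 899 and 3105 in the G0 lines. It stood 7.31 times higher in line 236 than in line 157 and 3.45 times higher in line 179 than in line 75, so the groups overlapped (log2 fold change -1.68, SE 0.92, adjusted p = 0.285).

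Among the 12 other HIF targets, Car9 and P4ha1 fell (16.7%, against 4.56% of all genes tested). The rest ranged from clear separation of the groups to none. Car9 (CA IX), a membrane carbonic anhydrase that handles acid in hypoxic tumours, on chromosome 4 from 43507026 to 43513729, had 214 and 822 normalized counts in G2 lines 157 and 236, against 2039 and 4132 in G0 lines 75 and 179. The groups did not overlap, but the lines of each group differed by 3.84 times in G2 and 2.03 times in G0. Car9 averaged 518 ± 430.1 in G2 and 3086 ± 1479.9 in G0 (SD, n = 2 each), a 5.96-fold fall (log2 fold change -2.79, SE 0.60, adjusted p = 0.0320), the largest fall among the 37 genes. That ratio was 3.75 without G2 line 157, 14.4 without G2 line 236 and 3.94 without G0 line 179, and the call was lost without the filter, under quantile normalization, without the intensity trend and under robust eBayes. P4ha1, a catalytic subunit of collagen prolyl hydroxylase, on chromosome 10 from 59323197 to 59373304, had 318.7 and 318.7 in the G2 lines and 549.9 and 809 in the G0 lines. The G2 lines were alike and both were lower, and P4ha1 fell 2.13-fold (log2 fold change -1.06, SE 0.22, adjusted p = 0.0262), a call lost without the intensity trend. Its partner isoform P4ha2 had 212 and 224 in the G2 lines and 261 and 524 in the G0 lines, and did not pass (adjusted p = 0.188).

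Vegfa, the main growth factor for blood vessels, had 130.1 and 341 normalized counts in G2 lines 157 and 236, against 476 and 817 in G0 lines 75 and 179. The groups did not overlap, and it did not pass (log2 fold change -1.56, SE 0.46, adjusted p = 0.0778). Ddit4 (REDD1), a stress-induced inhibitor of mTORC1, had 1585 and 2297 in the G2 lines and 2314 and 3423 in the G0 lines (adjusted p = 0.195). Higd1a, a mitochondrial inner membrane protein, had 289 and 416 in the G2 lines and 417 and 666 in the G0 lines (adjusted p = 0.220). Mxi1, an antagonist of MYC, had 1323 and 1392 in the G2 lines and 1427 and 1969 in the G0 lines (adjusted p = 0.315). For Ddit4, Higd1a and Mxi1, G2 line 236 came close to G0 line 75, and the separation of the groups rested on a small gap.

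The mitophagy receptors, the metastasis suppressor Ndrg1 and the HIF feedback enzyme Egln3 did not follow the groups. Bnip3, which marks mitochondria for removal, had 248 and 1065 normalized counts in G2 lines 157 and 236, against 570.5 and 1543 in G0 lines 75 and 179, and its relative Bnip3l had 2270.1 and 2867 against 2712 and 3122. Ndrg1 had 509 and 1073 in the G2 lines and 219.9 and 1550.1 in the G0 lines, a 7.05-fold difference between lines 179 and 75. Its log2 fold change was 0.34 (SE 0.82) while its mean was lower in G2, so the mean and the log scale differ in sign. Egln3, the prolyl hydroxylase that HIF itself induces, had 1697 and 2538 in the G2 lines and 1531 and 4016 in the G0 lines. The ankyrin repeat gene Ankrd37 had 24.2 and 45.0 in the G2 lines and 30.4 and 63.0 in the G0 lines. In these 5 genes at least 1 G2 line lay above G0 line 75, and adjusted p lay between 0.461 for Bnip3 and 0.822 for Ndrg1. G0 line 179 was highest for all 12 of these targets.

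Of the 4 genes for HIF subunits and their degradation, none passed the test, where 10.5% of all genes tested did. Hif1a, the alpha subunit found in most cells, had 3005 and 2860.1 normalized counts in G2 lines 157 and 236, against 3872 and 2756 in G0 lines 75 and 179 (log2 fold change -0.16, SE 0.18, adjusted p = 0.619). Line 179, which had the highest level of all 16 genes of import and glycolysis, had the lowest Hif1a level. Epas1 (HIF-2alpha) had 128 and 222 in the G2 lines and 139 and 169.6 in the G0 lines (adjusted p = 0.817), and Vhl, the substrate receptor of the ligase that degrades HIF, had 302 and 405 against 361 and 332 (adjusted p = 0.978). The groups overlapped for these 3 genes. Egln1 (PHD2), the main oxygen-sensing prolyl hydroxylase and itself a HIF target, had 870.3 and 1063 in the G2 lines and 1195 and 1631 in the G0 lines, with no overlap and no call (log2 fold change -0.54, SE 0.19, adjusted p = 0.132). RNA levels do not report the stability of the HIF proteins.

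**Figure D3:**
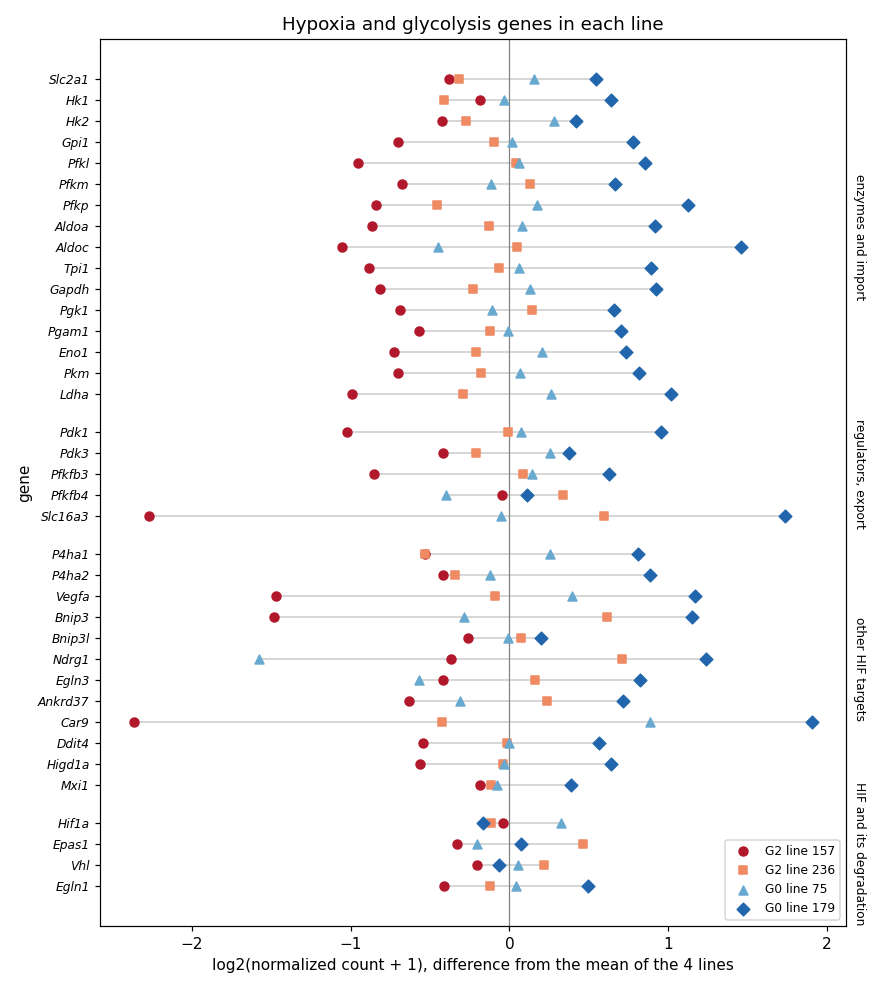
Level of each of the 37 genes in each line as log2(normalized count + 1), shown as the difference from the mean of the 4 lines (x axis). Line 179 of G0 is highest for 33 genes and line 157 of G2 is lowest for 31, while lines 236 and 75 mostly lie between them, with line 236 above line 75 for 12.

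The order of the 4 lines was shared by most of the genes. Line 179 was highest and line 157 lowest for 29 of the 37 genes (78.4%), against 15.3% of all genes tested. This held for 15 of the 16 genes of import and glycolysis, 4 of the 5 regulators, 9 of the 12 other HIF targets and 1 of the 4 genes for HIF and its degradation. The median difference between line 179 and line 75 was 0.75 on the log2 scale, as large as the median of -0.70 between the groups, and line 179 was above line 75 for 35 of 37 genes, against 51.2% of all genes tested. Within G2, the median difference between line 236 and line 157 was 0.58, with line 236 above line 157 for 34 of 37 genes, against 48.3% of all genes tested. Between the groups, the median difference of G2 line 236 from G0 line 75 was -0.11, with line 236 above line 75 for 12 of the 37 genes (32.4%), against 49.7% of all genes tested. Among the 16 genes of import and glycolysis, line 236 was above line 75 for 3, with a median difference of -0.23. These counts describe genes that share libraries, and they carry no test.

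**Figure D4:**
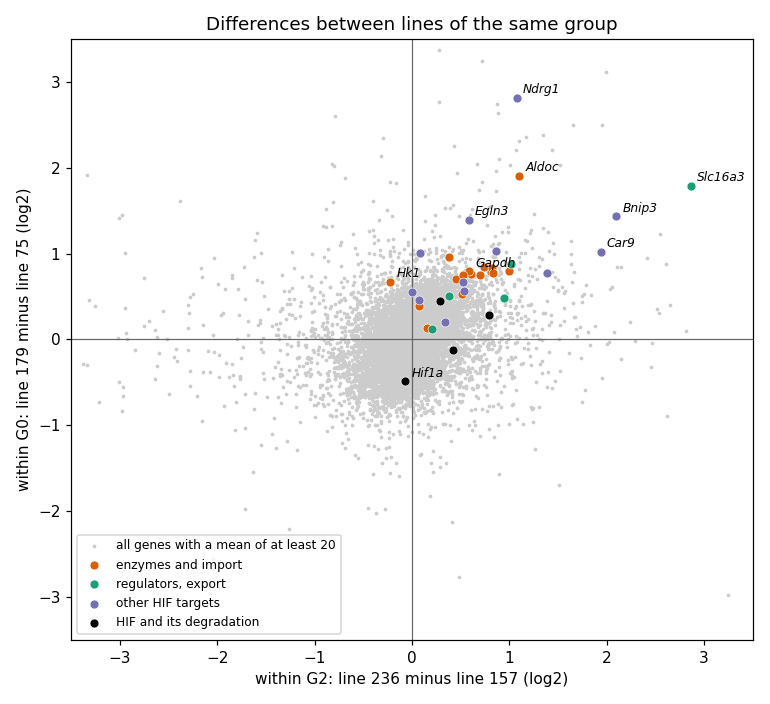
Difference between the lines of G2 (x axis, line 236 minus line 157) and between the lines of G0 (y axis, line 179 minus line 75) on the log2 scale, for the 37 genes in colour and all genes with a mean of at least 20 in grey; genes beyond the axes are not drawn. Most of the 37 genes lie in the upper right, from Gapdh near the middle of them to Slc16a3 and Ndrg1 at the edges, while Hif1a lies below both zero lines.

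Further genes of the pathway came from longer lists. Of 36 other hypoxia-induced genes tested, 7 fell (19.4%) and 0 rose, against 4.56% and 5.93% of all genes, with a median log2 fold change of -0.42. Ak4, an adenylate kinase of mitochondria, had 82.7 and 259 normalized counts in G2 lines 157 and 236, against 760.0 and 1509 in G0 lines 75 and 179, and fell 6.64-fold (adjusted p = 0.0203; 4.38-fold without G2 line 157 and 13.7-fold without G2 line 236). Car12, a carbonic anhydrase of the same kind as Car9, had 16.1 and 36.2 in the G2 lines and 968 and 792 in the G0 lines. It fell 33.7-fold (adjusted p = 0.000607; 54.6-fold without G2 line 236), and unlike Car9 it was higher in line 75 than in line 179. Stc2, a secreted glycoprotein, fell 3.11-fold, with 489 and 671 in the G2 lines and 1297 and 2304 in the G0 lines (adjusted p = 0.0173). Hmox1, the heme oxygenase that stress also induces, fell 2.50-fold (adjusted p = 0.00797), Ero1l, an oxidase of disulfide formation, 2.14-fold (adjusted p = 0.0388), and the collagen lysyl hydroxylase gene Plod2 1.99-fold (adjusted p = 0.0444). Adm, a vasoactive peptide gene, and Hif3a, a HIF alpha subunit, had levels in line 179 that the other lines lacked. Adm had 9.08 and 15.6 in the G2 lines and 10.8 and 111 in the G0 lines, and Hif3a had 7.06 and 8.80 against 6.87 and 80.2, and neither passed (adjusted p = 0.370 and 0.378). Of the 6 calls named here, that of Car12 held in all 11 alternatives that kept all libraries, and the others were lost without the intensity trend; Ak4, Ero1l and Plod2 were lost in further alternatives.

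Among 15 further components of the HIF pathway, 1 gene rose (6.67%) and 0 fell, near the 5.93% of all genes that rose. Cited2, which competes with HIF for its coactivators, had 1341 and 1110.4 normalized counts in G2 lines 157 and 236, against 669.7 and 833 in G0 lines 75 and 179 (log2 fold change 0.71, SE 0.17, adjusted p = 0.0471), and the call was lost in 4 of 11 alternatives. The partner subunit gene Arnt had 1237 and 1056 in the G2 lines and 1063 and 1120.4 in the G0 lines (adjusted p = 0.802). Of 34 further genes of glycolysis, lactate and pyruvate, 1 fell (2.94%) and 0 rose, with a median of -0.04, against 4.56% of all genes that fell. The gene that fell was Slc16a1 (MCT1), a lactate transporter, with 742 and 705 in the G2 lines and 1421 and 1370.3 in the G0 lines, with the lines of a group close together (1.93-fold, adjusted p = 0.00739). Of 15 genes of the pentose phosphate pathway and glycogen, 1 fell (6.67%) and 0 rose, with a median of -0.38. The shares that fell in these 2 lists lay near that of all genes. Of the 15 genes, however, 9 (60%) lay wholly lower in G2 and 11 (73.3%) were below 0, against 28.6% and 48.9% of all genes tested. The 1 that fell was Pgd, which makes NADPH in the pentose phosphate pathway. It had 3917 and 4127 in the G2 lines and 7478 and 8758 in the G0 lines (2.02-fold, adjusted p = 0.00733). For Slc16a1 and Pgd the gap between the groups was wider than the gap between lines of either group.

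Other marker lists differed between single lines, and the proliferation markers differed between the groups. The sum of 10 epithelial markers was 165906 and 173025 normalized counts in the G2 lines and 135077 and 181723 in the G0 lines, most of it from Krt19, Krt8, Cdh1 and Krt18. Of the 10, Vil1 fell 4.42-fold (adjusted p = 0.0103), Lgals4 fell 2.15-fold (adjusted p = 0.0124) and Cdh1 rose 1.80-fold (adjusted p = 0.0171). Cdx1 had under 10 normalized counts in every line, and Krt20 had 93.8 and 4.89 in the G2 lines and 0.982 and 0 in the G0 lines. Of the 14 proliferation markers summed above, 7 were called lower in G2 and 0 higher, and 13 of the 14 lay lower in both G2 lines than in both G0 lines, against 4.56% and 28.6% of all genes tested. Their sum was lowest in line 236 and nearly equal in both G0 lines. Line 179 was highest and line 157 lowest for 3 of the 14 markers (21.4%), against 15.3% of all genes tested. The sum of 10 mature colonocyte markers, led by Car1, was 4712 in G2 line 157 and 509 in G2 line 236. It was 46.1 in G0 line 75 and 113 in G0 line 179. All 7 of them that were tested were highest in line 157, against 27.1% of all genes tested. Car4, Alpi and Saa1 had counts in line 157 alone, at 6.05, 8.07 and 9.08. Aqp8 had 15.1 in line 157, 0.982 in line 75 and 0 in the others. These genes passed the filter only through line 157, so their being highest there was fixed by the filter. Of the 10 markers, Car1 was called higher in G2 and Slc26a3, Fabp2 and Guca2a were at or near 0 in every line. The part of colonocyte maturation in the glycolysis results was not tested. Of markers of other cell types, 4 were called higher in G2 and 0 lower, against 5.93% and 4.56% of all genes tested. The 4 were 2 of 4 endothelial, 1 of 4 macrophage and 1 of 3 fibroblast markers tested. The endothelial genes Tek, with 47.4 and 45.0 normalized counts in the G2 lines and 2.95 and 4.06 in the G0 lines, and Vwf, with 51.4 and 66.5 against 17.7 and 23.4, rose (adjusted p = 0.00587 and 0.0496). The macrophage gene Csf1r, with 16.1 and 4.89 in the G2 lines and 0 in both G0 lines, also rose (adjusted p = 0.0431). So did the fibroblast gene Col3a1, with 7.06 and 6.84 against 0 in both (adjusted p = 0.0404). Csf1r and Col3a1 passed the filter on low values only through the G2 lines. The part in the results above of markers of other cell types was not tested. Of the listed markers of these cell types, Ptprc, Dcn and Pdgfra were at 0 in every line and Pecam1 and Cdh5 had under 2 normalized counts. Adgre1, Lyz2, Tyrobp, Kdr, Emcn and Lum had no row among the deposited genes. Both G2 lines lay above both G0 lines for 3 of 4 macrophage, 2 of 4 endothelial and 1 of 3 fibroblast markers tested. The G2 lines lay wholly below for 1 marker, Col1a1. Laptm5 and Fcer1g were among the higher macrophage markers, without a call (adjusted p = 0.0550 and 0.342). Whether other cell types were absent was not tested. The sum of 8 listed fibroblast markers in the table was 43.4 and 48.9 in the G2 lines and 36.3 and 47.7 in the G0 lines. The 6 endothelial markers in the table summed to 116 and 144 in the G2 lines and 31.4 and 39.6 in the G0 lines, and the 5 macrophage markers, nearly all of it Cd68, to 1177 and 1923 against 1131 and 2111.

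**Figure D5:**
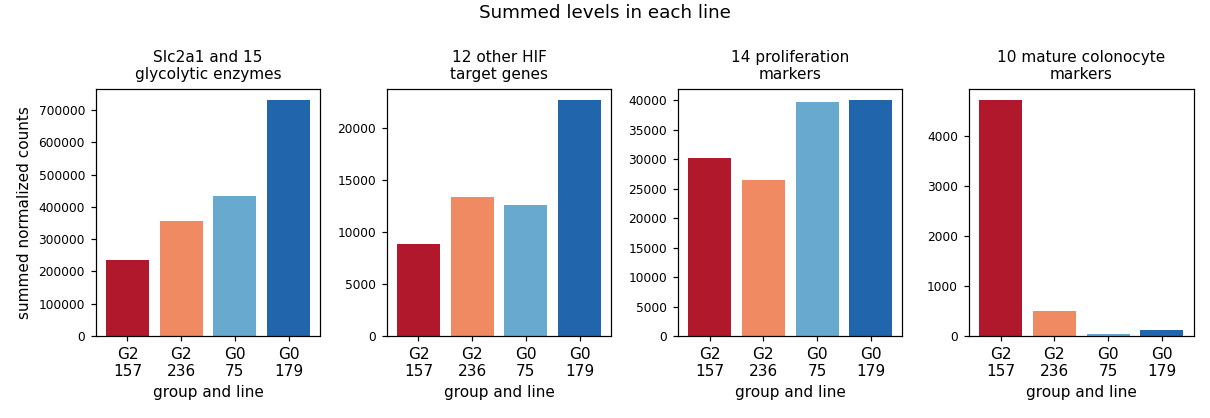
Summed normalized counts (y axes, each from 0) in each line for Slc2a1 with 15 glycolytic enzymes, 12 other HIF targets, 14 proliferation markers and 10 mature colonocyte markers. The enzymes sum to 235828 and 355123 in the G2 lines and 435071 and 729786 in the G0 lines, while the colonocyte markers are highest in G2 line 157 at 4712.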

How the data were processed

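The authors deposited one table of log2 values for 4 libraries, whose lowest value is 6.508 in every library. Build mm10 and the tools HISAT2 2.1.0, StringTie 2.1.1, DESeq2 1.32.0, bcl2fastq 2.20.0 and R 3.5.2 are listed, without roles, per the submitters' processing notes. Annotation, strand setting and filters are not given. A shared floor is what a variance-stabilizing transformation gives to 0, so the transformation was inverted, after which dividing by one factor per library left 100% of values within 0.001 of a whole number. StringTie estimates coverage, so these counts can be rounded estimates, and no count model was used.

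The test was limma 3.58.1 in R 4.3.3 (eBayes with an intensity trend, group as the only term) on log2(normalized count + 1), for the 13981 genes with a mean of at least 1, two-sided, with Benjamini-Hochberg adjustment over all of them and a threshold of 0.05. The pseudocount shrinks log2 fold changes of weakly expressed genes, and a fold in words is a ratio of mean normalized counts. The design had allowed for counts or normalized values and had not foreseen this scale. Tested on simulated data of 14034 genes of a single shared dispersion (0.0111), the fit called 90% of 2-fold and 100% of 4-fold changes. There was 1 false call among 191. In the 37 genes the lines of a group differed by a median of 0.58 (G2) and 0.75 (G0) on the log2 scale, a spread not simulated. Gapdh, Aldoa and Pdk1, with ratios of G0 to G2 means of 2.10, 2.01 and 2.02, did not pass. The shares called in the simulation therefore do not describe these genes.

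The 37 genes, the lists and the tests were chosen with earlier results of these data known. All 37 are named, and of the further lists each gene past the threshold except 1, which is not reported here; Adm, Hif3a, Arnt and single marker genes were chosen after their values were seen. Transcript length is the longest in GENCODE M21 (basic set), gene positions are RefSeq on GRCm38.p6, and Ero1l is the row of Ero1a by a RefSeq synonym. Alternatives covered the scale, pseudocount, filter, library scaling, spread model, a replicate block and leaving out each library.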

Additional observations from a re-analysis of the deposited data

How the results depend on the processing

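Of the 37 genes, 37 kept direction and call with the deposited log values, a pseudocount of 5, a mean of at least 5 and total count scaling. The 6 falling genes became 2 without a filter on low values (1 of the enzymes and 1 of the other HIF targets), 3 under quantile normalization (2 and 1) and 0 without the intensity trend (0 and 0, with 8 of the 37 at an unadjusted p under 0.05), where 241 genes in all were lower in G2 and 382 higher. Robust eBayes gave 7: 5 enzymes, 1 regulator and 1 of the other HIF targets. Leaving out 1 library left 1 line in a group, a fit that could not test any call, so only effect sizes are given for it. Same-numbered libraries share only a number: over 13981 genes their deviations from the group means correlated at 0.109 in 2 pairs. With the replicate number as a replicate block, 1644 genes were lower and 1859 higher, and 27 of the 37 genes were lower, namely 15 enzymes, 4 regulators, 7 other HIF targets and 1 of HIF and its degradation. Lines 236 and 179, both number 2, were above the other line of their group for 34 and 35 of the 37 genes. The block takes out that spread between lines without a basis in the design, so its calls carry no weight. It is among the 11 alternatives that kept all libraries. The Pfkm share difference of 0.955 percentage points was 0.743 when not divided by length. Uncalled genes changed sign when 1 library was left out: Bnip3 (-1.92 to 0.18), Ndrg1 (-1.07 to 1.75), Egln3 (-0.95 to 0.44), Ankrd37 (-0.91 to 0.11), Hif1a (-0.40 to 0.089), Epas1 (-0.26 to 0.53) and Vhl (-0.20 to 0.22), and Vhl was -0.038 under quantile normalization against 0.012 as reported. The causes were not tested. The depth limits Ankrd37 and Pfkfb4 most, with under 100 normalized counts.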
